A study of Oryza sativa Japonica Group with 8 samples.

Results

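The most abundant transcripts of young rice inflorescences were taken as all genes whose mean over the 8 libraries reached 100 FPKM, a unit that divides fragment counts by gene model length and library size. They were chosen by these measured levels. The rule returned 208 of the 37859 genes in the table of FPKM values, and 208 of the 18254 genes that averaged 1 FPKM or more and entered the test. The samples were meristems dissected from plants of Oryza sativa Japonica Group, cultivar Nipponbare, after 12 days of short days (12 h light at 28°C, 12 h dark at 26°C, 70% humidity) that followed long days of 16 h light and 8 h dark. The labels describe the tissue as early stages enriched in PBMs and ePBM/Ams. The 4 mutant libraries are labelled osg1l2 single mutant and the other 4 wild type control, and both groups share the cultivar, growth regime and stage. The sources used here do not give the allele, the number of lines or whether plants were pooled.

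In most eukaryotic tissues a small set of genes supplies a large part of the messenger RNA, and in dividing tissue such as a meristem it typically includes genes for ribosomes, translation, histones, the cytoskeleton and central metabolism. A shoot meristem keeps a pool of undifferentiated cells and forms the organs of the shoot, and the branch meristems of a rice panicle set its architecture. OsG1L2 belongs to the ALOG family of plant nuclear proteins, which act in inflorescence development. The deposited tables give RAP gene identifiers only, and the reference gene table used here matched 0 of the 208 identifiers, so no gene name, product or functional group was assigned to them. Genes are therefore referred to by their rank in mean FPKM, from 1 for the highest to 208. The chromosome of a gene was read from its identifier. For the same reason the tissue label was not checked against marker genes, nor the genotype labels against OsG1L2. One library, wild type replicate 2, differed from the rest: the library quality weight that limma estimated for it over all tested genes was 0.404, against 0.810 to 2.15 for the other 7, so results that rest on it are also given without it.

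The 208 genes made up 0.549% of the genes in the table and held 20.3% to 21.8% of the summed FPKM, a quantity per unit of gene length. Their share was 21.4%, 20.7%, 21.1% and 21.8% in wild type replicates 1 to 4, and 20.5%, 20.8%, 20.8% and 20.3% in osg1l2 replicates 1 to 4. The genotype means were 21.3% ± 0.478 (SD, n = 4) in wild type and 20.6% ± 0.233 (SD, n = 4) in osg1l2. Wild type replicate 2 lay among the osg1l2 libraries and the other wild type libraries lay above all of them, so the groups overlapped. These shares are a description, since the members were chosen on the same levels. The summed FPKM of all genes, which the shares are taken of, ran from 218558 to 231675 in wild type and from 213940 to 221906 in osg1l2.

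**Figure D1:**
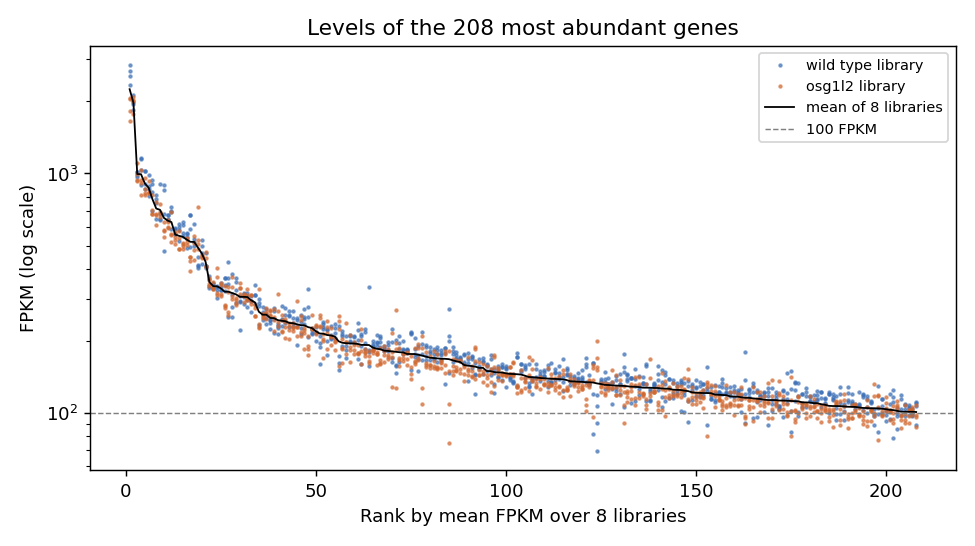
FPKM of each of the 208 genes in each library (points, log axis) against rank by the mean over 8 libraries (line), with the limit of 100 FPKM dashed. The levels fall steeply over the first ranks and then slowly, and 114 of the genes lie between 100 and 150 FPKM.

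Within the set the levels were uneven. The mean ran from 100.8 FPKM at rank 208 to 2249 FPKM at rank 1, a ratio of 22.3, with a median of 144 FPKM against 5.24 FPKM over all tested genes. Only 2 genes exceeded 1000 FPKM, 16 lay between 500 and 1000, 37 between 200 and 500, 39 between 150 and 200 and 114 between 100 and 150. The 10 highest genes held between 21.9% and 24.4% of the FPKM of the 208, depending on the library, and the 50 highest between 52.2% and 53.7%. The limit cut through a continuous series of levels. The last gene inside it had a mean of 100.8 FPKM and the first outside it 99.9 FPKM, followed by 98.8 and 98.6 FPKM.

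The gene of rank 1, Os05g0111300 on chromosome 5, was at 2832, 2334, 2668 and 2562 FPKM in wild type replicates 1 to 4 and at 1654, 2051, 1828 and 2059 FPKM in osg1l2 replicates 1 to 4. Rank 2, on chromosome 8, was at 1995, 1952, 1838 and 2128 FPKM in wild type and at 1776, 2006, 2083 and 2028 FPKM in osg1l2. The first of these had all its wild type values above its osg1l2 values, while those of the second overlapped. The order of the pair therefore differed between libraries: the gene of rank 1 was the highest in all 4 wild type libraries and in 2 of the 4 osg1l2 libraries, and the gene of rank 2 was the highest in the other 2. Os05g0111300 held 1.15% ± 0.0724 (SD, n = 4) of the summed FPKM in wild type and 0.871% ± 0.0741 (SD, n = 4) in osg1l2, and the gene of rank 2 held 0.874% ± 0.0588 (SD, n = 4) and 0.906% ± 0.0585 (SD, n = 4).

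Below this pair the level dropped by a ratio of 1.99 to rank 3, and the next 8 genes did not follow a fixed order. Rank 3, on chromosome 4, had wild type and osg1l2 means of 996 FPKM ± 24.2 and 993 ± 82.5 (SD, n = 4 in each). Rank 4, on chromosome 3, averaged 1060 FPKM ± 126 and 926 ± 89.2 (SD, n = 4 in each). The means of ranks 3 and 4 over the 8 libraries differed by less than the spread of either. Ranks 5 and 6, both on chromosome 1, averaged 952 FPKM ± 82.8 and 885 ± 72.5 in wild type and 865 ± 64.1 and 857 ± 48.2 in osg1l2 (SD, n = 4 in each). Ranks 7 and 8 lay at 844 FPKM ± 108 and 748 ± 74.7 in wild type and at 718 ± 63.8 and 679 ± 62.1 in osg1l2. Rank 9, on chromosome 2, was at 674, 899, 640 and 644 FPKM in wild type replicates 1 to 4 and between 660 and 746 FPKM in osg1l2. Rank 10, on chromosome 3, was at 677, 475, 898 and 849 FPKM in wild type and between 540 and 625 FPKM in osg1l2. Wild type replicate 2 was the highest of its genotype at rank 9 and the lowest at rank 10, and in each case lay outside the range of all other 7 libraries. None of the genes of ranks 2 to 10 passed the test between the genotypes (limma adjusted p between 0.27 and 0.98).

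Membership was less fixed near the limit. Of the 208 genes, 163 were at 100 FPKM or more in every library and 45 fell below it in at least 1. A further 56 genes reached 100 FPKM in at least 1 library but not on average. In each library between 189 and 201 of the 208 genes were among its own 208 highest, and 165 were so in all 8. By the mean of 1 genotype alone, 218 genes reached 100 FPKM in wild type and 193 in osg1l2. Among the 208, the mean was under 100 FPKM in wild type for 5 genes and in osg1l2 for 17. Across the 208 genes, the Spearman correlation of 2 libraries was 0.879 to 0.958 within a genotype and 0.847 to 0.944 across genotypes, as a description over genes that share the same libraries.

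The spread between libraries was small for most of these genes. The coefficient of variation (SD over mean of the 4 libraries of a genotype) had a median of 6.71% in wild type (quartiles 4.40% and 10.5%) and 6.53% in osg1l2 (quartiles 4.37% and 9.69%). It was under 5% for 65 genes in each genotype and at least 20% for 10 genes in wild type and 7 in osg1l2. Genes averaging 20 to 100 FPKM had nearly the same medians, 6.79% and 6.45%, and genes of 5 to 20 FPKM had 7.34% and 7.11%. Only the genes of 1 to 5 FPKM were more variable, at 11.3% and 10.96%. Over the levels above 5 FPKM a higher level thus came with little further fall in spread. The standard error of the fitted log2 change had a median of 0.071 over the 208 genes and 0.076 over all tested genes. It was no lower than for genes of 5 to 20 FPKM (0.0691) or 20 to 100 FPKM (0.0685). Genes of 1 to 5 FPKM had 0.0835.

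By the mean of the coefficients of variation of both genotypes, the most variable members were those of ranks 85, 123, 175, 71 and 153. The largest value in a single genotype, 38.5% in wild type, was that of rank 64, which was at 182, 336, 158 and 180 FPKM there and had 4.86% in osg1l2. Rank 85, on chromosome 5, was at 210, 147, 270 and 199 FPKM in wild type and at 74.9, 109, 150 and 181 FPKM in osg1l2, so the osg1l2 libraries spread widely and the genotypes overlapped. Rank 123, on chromosome 1, was at 120, 81.2, 162 and 162 FPKM in wild type and at 158, 154, 137 and 96.3 FPKM in osg1l2. Rank 71, on chromosome 12, was at 158, 147, 157 and 202 FPKM in wild type and at 195, 268, 185 and 127 FPKM in osg1l2. These genes had no common order of libraries within osg1l2, where replicate 1 was the lowest at rank 85 and replicate 4 at ranks 123 and 71. Replicate 4 was also the lowest osg1l2 library at rank 153. Rank 175 ranged from 83.1 to 150 FPKM in wild type and from 80.3 to 142 FPKM in osg1l2. Rank 153 ranged from 89.2 to 155 FPKM and from 79.7 to 134 FPKM.

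Part of the spread within wild type came with a single library. Wild type replicate 2 was the lowest wild type library for 119 of the 208 genes and the highest for 23, whereas replicate 4 was the highest for 85 and the lowest for 9. Its log2 level lay a median of 0.09 below the mean of the other 3 wild type libraries over the 208 genes and 0.05 below it over all tested genes. Without it the median coefficient of variation in wild type was 4.81%, and 3 genes in place of 10 reached 20%. In this library 10 genes were lower than in the others by at least 0.5 on the log2 scale and 1 was higher. The 10 genes held ranks 10, 27, 75, 85, 123, 124, 131, 163, 175 and 202. For 7 of them wild type replicate 3 was the highest wild type library and for the remaining 3 replicate 4 was. In 5 of the 10, wild type replicate 2 was also under every osg1l2 library. The gene that was higher in it, of rank 64 on chromosome 3, deviated by 0.96 on the log2 scale.

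**Figure D2:**
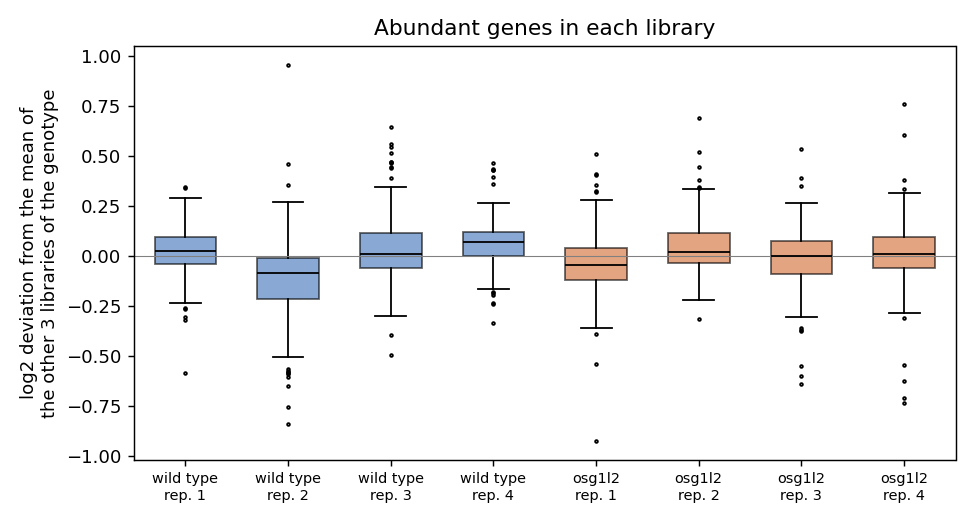
Deviation of each of the 208 genes in each library from the mean of the other 3 libraries of its genotype, on the log2(FPKM + 1) scale. Boxes show quartiles and median, whiskers reach 1.5 times the interquartile range and points lie beyond. Wild type replicate 2 sits lowest, with 10 genes at least 0.5 below the others.

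Osg1l2 was then compared with wild type, to ask which of these transcripts differ between the genotypes. In the test across all 18254 genes (limma on log2(FPKM + 1), Benjamini-Hochberg adjustment, adjusted p under 0.05), 8 of the 208 were called, 1 higher in osg1l2 and 7 lower. This is 3.85% of the members, against 1.93% of all tested genes (0.898% higher and 1.03% lower). The genotypes of all 8 did not overlap, and their adjusted p-values lay close together, between 0.036 and 0.04975, just under the threshold. A further 7 members had an adjusted p between 0.05 and 0.1. At an unadjusted limma p under 0.05 there were 67 members (32.2%), 6 higher and 61 lower, against 19.5% of all tested genes. RNA from whole dissected tissue was measured, so fewer cells of a type and less RNA per cell cannot be told apart.

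The member that rose, Os06g0286400, of rank 124 and on chromosome 6, was at 90.3, 69.3, 107 and 119 FPKM in wild type replicates 1 to 4 and at 170, 200, 151 and 155 FPKM in osg1l2 replicates 1 to 4. Every osg1l2 value lay above every wild type value. Its mean went from 96.5 FPKM ± 21.6 (SD, n = 4) to 169 ± 22.2 (SD, n = 4), a log2 fold change of 0.82 (standard error 0.16, limma adjusted p = 0.037). It was also among the 10 genes that were low in wild type replicate 2, and without that library its log2 fold change was 0.67 (limma adjusted p = 0.024). Its wild type mean alone was under 100 FPKM, so its place in the set rests on the osg1l2 libraries. The genes beside it were also examined. The next tested gene by identifier fell from 1.51 FPKM ± 0.056 to 0.897 ± 0.131 (SD, n = 4 in each, limma adjusted p = 0.026), and the one after that rose from 2.0 FPKM ± 0.180 to 2.74 ± 0.167 (limma adjusted p = 0.044). The tested genes on its other side, at 22.6 and 19.7 FPKM in wild type and 23.7 and 21.0 FPKM in osg1l2, did not pass the test. In the authors' deposited table of their own comparison, the 2 genes after it had q = 0.012 (lower in osg1l2) and q = 0.018 (higher), and the nearest gene before it had q = 0.0099 with a log2 fold change of 0.38. The lowest q there of any neighbour examined was beside another called member. It was 0.0024 for the next tested gene after rank 190 (log2 fold change -0.42). Of the tested genes listed there, 3.23% had q under 0.05. Over all 8 called members, 1 of the 16 directly adjacent tested genes was called, and 2 of the 32 within 2 steps. Both were the genes after Os06g0286400 described above. Of all tested genes 1.93% were called.

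The 2 largest falls among the called members were of Os09g0484200 and of Os05g0111300, the most abundant gene described above. Os09g0484200, of rank 17 and on chromosome 9, was at 588, 495, 670 and 671 FPKM in wild type and at 391, 449, 448 and 432 FPKM in osg1l2. The lowest wild type library, replicate 2, was still above the highest osg1l2 library. Its mean fell from 606 FPKM ± 83.5 (SD, n = 4) to 430 ± 27.1 (SD, n = 4), a log2 fold change of -0.48 (standard error 0.10, limma adjusted p = 0.04975). Os05g0111300 fell from 2599 FPKM ± 209 (SD, n = 4) to 1898 ± 195 (SD, n = 4), a log2 fold change of -0.46 (standard error 0.094, limma adjusted p = 0.047). Its 4 tested neighbours by identifier did not pass the test and had log2 fold changes between -0.18 and 0.0046.

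The other 5 called members, all lower in osg1l2, were of lower rank and changed less. Rank 121, on chromosome 5, fell from 155 FPKM ± 14.5 (SD, n = 4) to 114 ± 12.3 (SD, n = 4), a log2 fold change of -0.45. Rank 176, on chromosome 8, had wild type values of 125, 113, 135 and 133 FPKM and osg1l2 values of 91.7, 103, 102 and 94.1 FPKM, and a log2 fold change of -0.37. Rank 190, on chromosome 7, had a log2 fold change of -0.33. The osg1l2 means of ranks 176 and 190, 97.6 and 93.9 FPKM, were under 100 FPKM, so their place in the set rests on the wild type libraries. The smallest changes that were called were those of ranks 132 and 116, which had narrow spreads. Rank 132, on chromosome 1, was at 145, 138, 135 and 144 FPKM in wild type and at 111, 116, 120 and 123 FPKM in osg1l2 (log2 fold change -0.25). Rank 116, on chromosome 11, was at 154, 144, 145 and 151 FPKM in wild type and at 124, 124, 126 and 128 FPKM in osg1l2 (log2 fold change -0.24), with a coefficient of variation of 1.5% among the osg1l2 libraries. Its next tested neighbour by identifier, at 80.9 FPKM ± 2.78 in wild type and 71.8 ± 1.61 in osg1l2 (SD, n = 4 in each), also had genotypes that did not overlap, with a limma adjusted p of 0.097. Other such neighbours went both ways. The next tested gene after rank 121 was lower (log2 fold change -0.097). The second after rank 121 (0.15) and the second after rank 190 (0.21) were higher. None of them was called. Of all tested genes, 7.69% were lower without overlap and 4.11% higher.

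**Figure D3:**
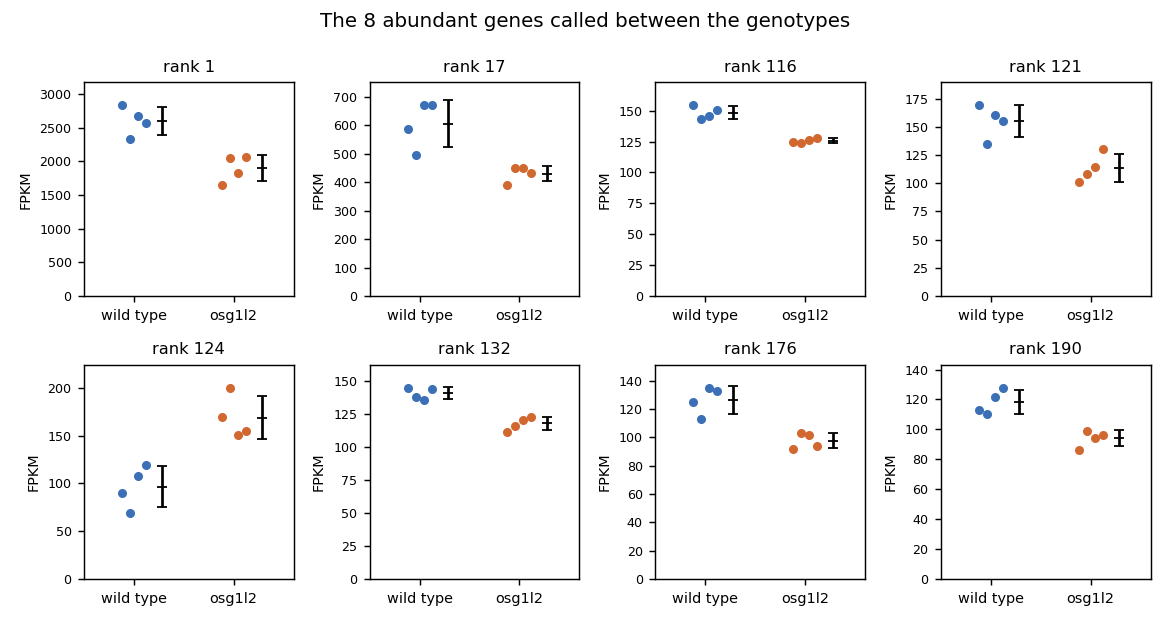
FPKM of the 8 called genes in each library (points; wild type blue, osg1l2 orange), with the mean and SD of each genotype in black. All axes start at 0. The gene of rank 124 is higher in osg1l2 and the other 7 are lower, with no overlap between the genotypes in any of the 8.

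Large changes were not confined to the called members. Rank 85, the most variable gene by the mean of both genotypes, had the lowest log2 fold change of the set, -0.72 (standard error 0.27, limma adjusted p = 0.19). Rank 48, on chromosome 1, was at 278, 208, 251 and 329 FPKM in wild type and at 190, 186, 209 and 174 FPKM in osg1l2, a log2 fold change of -0.47 (limma adjusted p = 0.098). Only its wild type replicate 2 fell within the osg1l2 range, and without that library it was called, with a log2 fold change of -0.58 (limma adjusted p = 0.021). Rank 19, on chromosome 11, was at 415, 402, 411 and 449 FPKM in wild type and at 721, 525, 484 and 508 FPKM in osg1l2, a log2 fold change of 0.40 (limma adjusted p = 0.12). Its genotypes did not overlap, but osg1l2 replicate 1 lay far above the other 3. Ranks 163 and 131, both low in wild type replicate 2, had log2 fold changes of -0.37 each (limma adjusted p = 0.29 and 0.24). Without that library these were -0.54 and -0.51 (limma adjusted p = 0.061 and 0.051). Rank 85, also low in it, was then at -0.87 (limma adjusted p = 0.0998).

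Most of the members changed little, and more of them had lower than higher values in osg1l2. The median log2 fold change was -0.094 (quartiles -0.17 and -0.014), against -0.037 over all tested genes (quartiles -0.12 and 0.048). The fitted change was below 0 for 164 of the 208 (78.8%), against 61.7% of all tested genes. A change of at least 0.25 in either direction was found for 26 members (12.5%, against 11.3% of all tested genes), one of at least 0.5 for 2 (0.962%, against 2.64%) and one of at least 1 for none (against 0.734%). The genotypes did not overlap for 44 members. In 39 of these (18.8%) osg1l2 was lower, against 7.69% of all tested genes, and in 5 (2.40%) it was higher, against 4.11%. Of the 44, 36 were not called. By the median, the lower values were spread over the ranks: among ranks 1 to 50 the median log2 fold change was -0.062, among ranks 51 to 100 -0.12, among ranks 101 to 150 -0.077 and among ranks 151 to 208 -0.097. The members without overlap were less evenly spread. In these groups of 50, 50, 50 and 58 genes, 5, 9, 11 and 14 were lower and 3, 1, 1 and 0 higher.

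The excess of lower values depended on how the libraries were scaled. With each library rescaled to the same summed FPKM, 130 of the 208 lay below 0, the median was -0.037 (0.010 over all tested genes), and the genotypes did not overlap for 16 lower members (7.69%, against 4.49% of all tested genes) and 9 higher ones (4.33%, against 6.94%). After median-of-ratios rescaling 138 lay below 0, the median was -0.052 (-0.0022 over all tested genes), and the non-overlapping members were 21 lower (10.1%, against 5.42%) and 9 higher (4.33%, against 6.05%). Quantile normalization, which makes the distribution of levels the same in every library, gave 112 below 0, a median of -0.0079, and 11 lower (5.29%, against 5.14%) and 9 higher (4.33%, against 6.03%). For this set that median is near 0 largely by construction, since 189 to 201 of the members are among the 208 highest of each library. The median of the 208 stayed below that of all tested genes under each of these scalings, by 0.047, 0.049 and 0.006. The called members were 6, 6 and 2 under the same 3 scalings, each time with 1 higher, and all of them were among the 8. As shares these are 2.88%, 2.88% and 0.962%, against 2.08%, 1.91% and 1.87% of all tested genes.

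**Figure D4:**
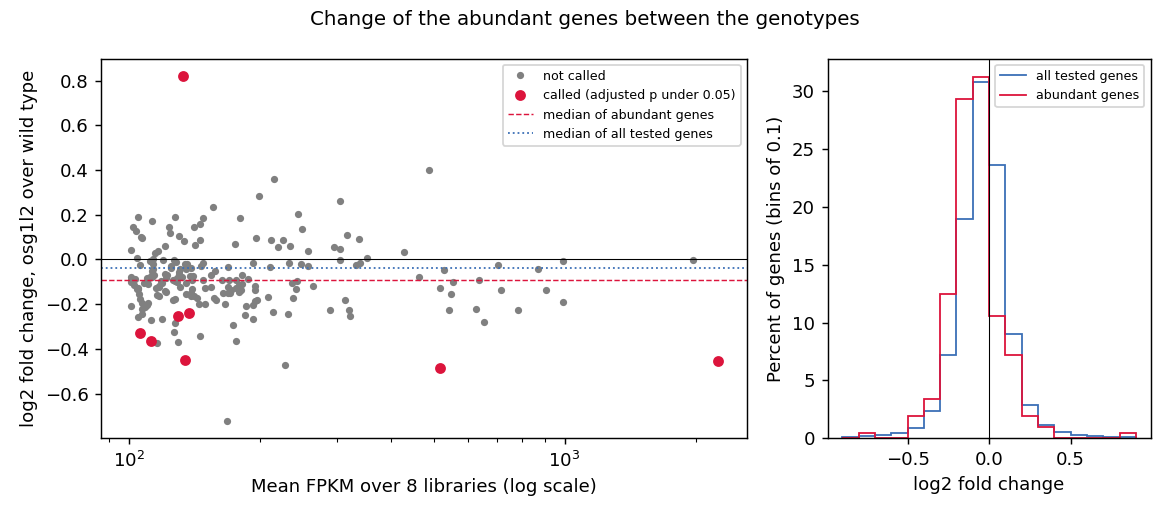
Left, log2 fold change of each of the 208 genes (osg1l2 over wild type, log2(FPKM + 1) scale) against mean FPKM (log axis), with the 8 called genes in red and the medians of the 208 genes (dashed) and of all tested genes (dotted). Right, the share of genes in bins of 0.1 for the 208 and for all 18254 tested genes. The distribution of the 208 lies slightly to the left, with medians of -0.094 and -0.037.

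The 8 calls also depended on the libraries. Leaving out wild type replicate 2, which stood apart above, gave 16 called members, 1 higher and 15 lower, including all 8 (limma, adjusted p under 0.05; 7.69% of the members, against 4.53% of all genes tested in that fit). Leaving out wild type replicate 1 or 3, or osg1l2 replicate 1, 2 or 3, gave 0 called members, with 44 to 63 at an unadjusted limma p under 0.05. The share of all tested genes at that unadjusted p was not computed for these fits. With all 8 libraries it was 19.5%, against 67 members (32.2%). In these 5 fits, in that order, 0.849%, 0.982%, 0.892%, 1.31% and 1.01% of all tested genes were called. Leaving out wild type replicate 4 gave 1, the gene that rose (background 0.893%), and leaving out osg1l2 replicate 4 gave 1 that fell (background 1.26%). The direction of each of the 8 genes was the same in all of these fits. This had to hold, since none of the 8 had overlapping genotypes.

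**Figure D5:**
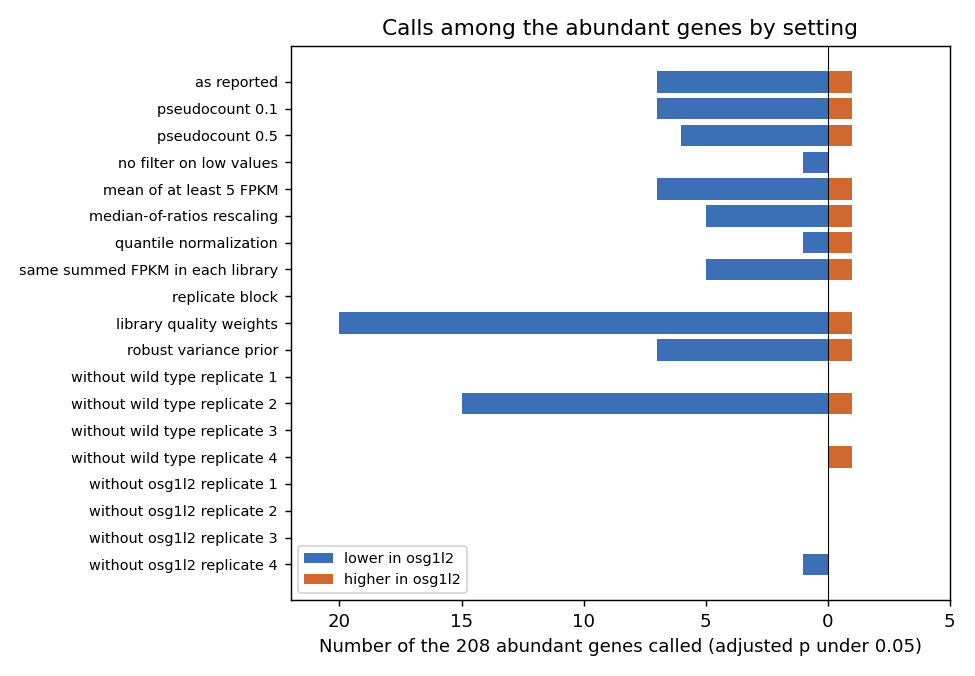
Number of the 208 genes called (limma adjusted p under 0.05) under each setting, with genes lower in osg1l2 to the left of 0 and genes higher to the right. The count of 7 lower and 1 higher becomes 15 and 1 without wild type replicate 2, and 0 in total without 5 of the other libraries.

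In the authors' deposited table of their own comparison, 207 of the 208 genes were listed under their own identifier. The one that was not is Os06g0286400, so its rise has no value there. There, 7 of the 207 (3.38%) passed the q-value of the authors' deposited table at 0.05, all lower in osg1l2, a share close to the 3.23% found over the tested genes listed there. Only 2 of the 7 were among the 8 called in the FPKM test, ranks 17 (q = 0.028) and 190 (q = 0.026). The genotypes of the other 5, ranks 48, 64, 75, 85 and 131, overlapped in the FPKM values. Rank 64 was at 336 FPKM in wild type replicate 2 and at 158 to 182 FPKM in the other wild type libraries. In osg1l2 it was at 162 to 180 FPKM, so its lower mean there rests on that 1 wild type library. The authors' deposited table gave q = 0.12 and a log2 fold change of -0.35 for the gene of rank 1. The median log2 fold change of the members in the authors' deposited table was -0.071, against -0.012 for the tested genes that are above 0 in both genotypes there, and 151 members lay below 0. These values come from the same libraries and add no independent support.

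The level of a member also depended on which deposited table was read. The wild type value in the authors' deposited table was a median of 1.62 times the mean wild type FPKM over the members, but the ratio ran from 0.882 to 3.51, with 52 members at 2 or more and 15 at 3 or more. Ranked by the mean of the 2 genotype values in the authors' deposited table, ranks 1 and 2 kept their places, and 8 of the 10 highest genes were among the 10 highest there. Of the 208 members, 165 (79.3%) were among the 208 highest. The 43 other genes in those 208 had between 30.1 and 98.6 FPKM, with a median of 84.5, and the lowest placed member stood at position 473.

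The members lay on all 12 chromosomes. They made up 1.61% of the tested genes of chromosome 9, 1.59% of those of chromosome 5 and 1.54% of those of chromosome 3, which held 39, the highest number. Chromosome 12 had the lowest share, 0.495%, with 5 members. In identifier order, 6 pairs of members were direct neighbours among tested genes, on chromosomes 2, 3, 5, 8 and 9. In 5 of these pairs the identifiers were 50 apart, and the sources used here do not say whether libraries were stranded, so overlapping or antisense gene models could share reads. The levels within a pair differed, for example 139 FPKM at rank 112 beside 705 FPKM at rank 9. At ranks 57 and 51 the pair moved apart, with log2 fold changes of -0.18 and 0.36, of which neither was called.

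Identifiers that do not end in 00 were somewhat more frequent among the members, 31 of 208 (14.9%), than among all tested genes (11.8%). Their median coefficient of variation was 10.2% in wild type and 8.02% in osg1l2, against 6.29% and 6.31% for the other 177 members. Their median log2 fold change was -0.028, against -0.096, and 1 of the 31 was called. Counts shared between near-identical gene copies could not be examined, since the identifiers carry no sequence or family here.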

How the data were processed

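RNA sequencing of 4 osg1l2 and 4 wild type libraries was read from 2 tables. The authors deposited one FPKM value per gene and library. The submitters' processing notes name the genome build IRGSP-1.0. Aligner and quantifier: not given in the sources used here. Positive FPKM values far smaller than 1 read could give show that they are estimates, so reads could not be recovered as whole numbers, depth is unknown and no count test was run. The authors' deposited comparison holds a value per genotype of unnamed unit, treated as a score, beside a q-value and the log2 fold change, per the file headers. How libraries were combined is not stated.

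Genes averaging 1 FPKM or more were tested on log2(FPKM + 1), which understates changes of low genes, with limma 3.58.1 in R 4.3.3 (intensity trend, two-sided, Benjamini-Hochberg over all tested genes). The procedure was tested on simulated data. Descriptions used Python 3.11.15, numpy 2.4.6, pandas 2.3.3 and matplotlib 3.10.9. The members, lists and tests were chosen with earlier results of these data known. The labels do not say in what way the replicates are independent, and p-values reflect only the variation among these 8 libraries, which may be technical.

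Genes described singly were all called members, the 10 highest, those at the limit, the 5 most variable and the 5 largest changes not called. Planned functional groups by product and marker genes could not be formed. Without names, identifiers are given for at most 2 called genes in each direction. Ranks 64 and 75 and the neighbours of called genes were chosen after their values were seen. Alternatives were other pseudocounts, filters, scalings, a replicate block, library quality weights, a robust prior, other limits of abundance and leaving out each library. The scalings of the non-overlap counts and the settings of the median change were added after seeing the data.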

Additional observations from a re-analysis of the deposited data

Results flagged for a closer look

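Outlying libraries were looked for in 60 groups of 4 values (each gene singled out by rule, and the share of summed FPKM, in each genotype). In 3 of them a library's gap to the nearest other exceeded Dixon's 95% critical share of the range of its group. Chance passes this limit in about 1 of 20 groups. Rank 6 was at 929 FPKM in osg1l2 replicate 2, against 829 to 838 FPKM in the other osg1l2 libraries. Rank 9 was at 899 FPKM in wild type replicate 2, against 640 to 674 FPKM in the other wild type libraries. Rank 153 was at 79.7 FPKM in osg1l2 replicate 4, against 128 to 134 FPKM in the others. None of these genes was called between the genotypes. Ranks 64 and 75, chosen after their values were seen, were not among the 60 groups, so the 3 flags do not cover them. In wild type replicate 2 they were at 336 and 151 FPKM. The other wild type libraries were at 158 to 182 FPKM for rank 64 and at 213 to 217 FPKM for rank 75.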

How the results depend on the processing

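The count of 8 called genes (1 higher, 7 lower) was within 1.5 times under both other pseudocounts, a mean of at least 5 FPKM, median-of-ratios rescaling, equal summed FPKM and a robust prior (6 to 8). These counts are 2.88% to 3.85% of the members, against 1.62% to 2.08% of all tested genes in those fits. With no filter on low values it was 1 (0 higher, 1 lower). This is 0.481% of the members, against 1.32% of all tested genes in that fit. Quantile normalization gave 2 (1 lower), or 0.962% against 1.87%. Library quality weights gave 21 (20 lower), or 10.1% of the members against 6.01% of all tested genes in that fit. The replicate block gave 0, against 0.833% of all tested genes in that fit. There 45 members were at an unadjusted limma p under 0.05, for which the share of all tested genes was not computed. The labels do not say whether same-numbered libraries were collected or processed together. Their deviations from their genotype's mean had correlations of 0.069, -0.017, -0.091 and -0.12, which does not settle this. With single libraries left out the count ran from 0 to 16 (higher 0 to 1, lower 0 to 15). The cause was not tested, but such fits have fewer libraries. A limit of 50 FPKM gave 22 called genes (7 higher, 15 lower) in a larger set, and 200 FPKM gave 2 (0 higher, 2 lower) in a smaller one. The called shares of these sets were not computed, so the counts cannot be set beside the 1.93% of all tested genes. These limits moved the share of summed FPKM to 35.1% and 11.8% in wild type and to 34.3% and 11.4% in osg1l2, by construction. Members without overlap went from 39 lower and 5 higher to 21 and 9 with median-of-ratios rescaling, 16 and 9 with equal sums and 11 and 9 with quantile normalization. Quantile normalization also moved the median log2 change to -0.0079, largely by construction. At q under 0.01 the authors' deposited table kept 2 members. Of the 8 called genes and the 5 largest changes not called, none reversed. For the 8, whose genotypes did not overlap, leaving out a library could not reverse the direction. The other genes described singly were not run under the alternatives. Over 18 alternatives, the called genes stayed under the threshold in 6 (rank 132) to 10 (rank 124), and limma's adjusted p reached 0.14 for Os06g0286400, 0.19 for Os09g0484200 and 0.76 for Os05g0111300. This last value came with no filter on low values, where the log2 change was still -0.46. Quantile normalization, which sets the highest value of every library to the same number, gave that gene a log2 change of -0.13 (limma adjusted p = 0.43). Limits set by depth are unknown, since the tables give no counts.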
